A study of Mus musculus with 6 samples.

Results

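The Ly6 genes encode small cysteine-rich proteins of the Ly6/uPAR family, most of which are held on the outer face of the plasma membrane by a glycosylphosphatidylinositol (GPI) anchor. They are best known as surface antigens that tell blood cell types apart, and several of them respond to interferons. In the gut, *Ly6a*, which encodes the stem cell antigen Sca-1, is known as a marker of the fetal-like epithelium that appears after injury.

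The genes described here are *Ly6m*, *Ly6e*, *Ly6a*, *Ly6d* and *Ly6c1*, 5 of the 20409 features in a table of read counts from mouse duodenal villi. They were picked by symbol because, in these same libraries, *Ly6m* was lower and *Ly6a* higher in mutant villi. The values of the mutant against wild-type contrast are therefore given for them as a description, without a test.

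Bulk RNA-seq of polyadenylated transcripts was performed on villus epithelium from 3 double mutant and 3 wild-type mice, with 1 library per mouse. The double mutant villi (DMV) came from mice with Smad4 fl/fl and Ctnnb exon3 fl/wt alleles and a tamoxifen-dependent Cre (Villin-CreERT2) that is active throughout the intestinal epithelium, so that Smad4 is lost and β-catenin is stabilised. On 4 days these mice received tamoxifen, at a dose of 0.05 g/kg, and villi were collected 7 days after induction. The wild-type villi (WTV) came from littermates that were not injected, so an effect of the alleles and an effect of tamoxifen cannot be told apart. Each group held 1 male, which was mouse 1, and 2 females, and the mice were on a background enriched for C57BL6.

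Libraries held 19678507 to 26337318 counts, at which 3 counts correspond to 0.125 to 0.163 CPM (counts relative to the library size, scaled here by the TMM method). These floors cover counting error only. *Smad4*, the targeted gene, had 120 to 180 CPM in the 3 WTV and 26.1 to 36.8 CPM in the 3 DMV, in the direction the labels give. The summed share of 8 epithelial marker genes was 1.88 to 1.95% of counts in WTV and 1.76 to 1.80% in DMV. In the edgeR test over all genes, *Krt19* rose (log2 fold change, DMV over WTV, 1.55) and *Vil1* (-0.85) and *Krt20* (-0.97) fell. The other 5 did not pass, which is 37.5% called beside 36.8% of all tested genes. The library of wild-type mouse 1 stood apart. In it, 7 goblet cell genes made up 0.0112% of counts, against 1.06 and 1.08% in the other wild-type mice and 0.493 to 0.547% in DMV. Without it, the log2 ratio of the goblet share (DMV over WTV) was -1.03 in place of -0.45. The log2 fold changes of the Ly6 genes are given with and without this mouse.

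*Ly6m*, a little-studied member of the family that the mm9 annotation lists as 2010109I03Rik, was the most abundant of the 5 per exon length in wild-type villi. The gene lies at chr15:74708766-74712134 on the minus strand of mm9. It had 5928, 5567 and 6550 counts in wild-type mice 1 to 3, equal to 247, 303 and 331 CPM. In double mutant mice 1 to 3 it had 90, 115 and 101 counts, equal to 4.23, 5.33 and 4.79 CPM. The lowest WTV thus lay far above the highest DMV, and within a group the highest mouse exceeded the lowest by 1.34-fold in WTV and 1.26-fold in DMV. The mean went from 294 ± 42.8 CPM to 4.78 ± 0.554 CPM (SD, n = 3 each), and the log2 fold change, DMV over WTV, was -5.94 ± 0.17 (SE), and -6.05 without wild-type mouse 1. This was the fall ranked 23rd by size among 13346 tested genes. In bulk tissue, fewer cells of a type and less RNA per cell cannot be told apart.

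*Ly6e*, a broadly expressed, interferon-responsive member known for limiting the entry of some viruses, lies at chr15:74785481-74790335 on the plus strand. It had 20.9, 44.9 and 54.7 CPM in wild-type mice 1 to 3. In double mutant mice 1 to 3 it had 192, 216 and 171 CPM. The groups did not overlap, and the lowest wild-type value was that of mouse 1, the library poor in goblet cell transcripts. The mean went from 40.2 ± 17.4 to 193 ± 22.4 CPM, and the log2 fold change was 2.27 ± 0.34. Without wild-type mouse 1 it was 1.96. Its rise ranked 288th by size.

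*Ly6a* lies at chr15:74825308-74828064 on the minus strand. It was sparse in wild-type villi, with 17, 20 and 25 counts, equal to 0.708, 1.09 and 1.26 CPM in mice 1 to 3. In double mutant mice 1 to 3 it had 155, 319 and 208 counts, equal to 7.28, 14.8 and 9.87 CPM. Every DMV was above every WTV, and double mutant mouse 2 had 2.03 times the level of double mutant mouse 1, the widest spread of the 4 measurable genes in DMV. The mean went from 1.02 ± 0.284 to 10.7 ± 3.82 CPM. The log2 fold change was 3.39 ± 0.35, and 3.17 without wild-type mouse 1, and the rise ranked 65th by size. Sca-1 is also carried by T cells and blood vessels. The summed share of 8 genes of intraepithelial T cells was 0.00864 to 0.0181% in WTV and 0.00911 to 0.0133% in DMV, and the WTV other than mouse 1 lay above every DMV. All 8 were detected in every library, and 2 of them, *Ptprc* and *Cd8a*, fell in the test over all genes (25.0% called, beside 36.8% of all tested genes). Of 4 endothelial genes, *Kdr* had at most 2 counts in any library and *Plvap* had 12 to 25 counts in WTV and 0 in each DMV. *Tek* had 25, 20 and 33 counts in WTV and 55, 48 and 52 in DMV, and *Pecam1* had 7, 15 and 2 counts in WTV and 15, 14 and 15 in DMV. The summed share of the 4 was 0.000216 to 0.000259% in WTV and 0.000304 to 0.000356% in DMV. The part of these cells in the *Ly6a* result was not tested.

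*Ly6d*, a marker of the early B cell lineage and of stratified epithelia, lies at chr15:74592486-74593997 on the minus strand. It had 0, 2 and 4 counts in wild-type mice 1 to 3 and 15, 19 and 14 counts in double mutant mice 1 to 3. Only wild-type mouse 3 exceeded the floor of 3 counts, and all 3 DMV did, so *Ly6d* passed the filter on low counts through its level in DMV. The fitted log2 fold change was 2.86 ± 0.77, and it ran from 2.22 without wild-type mouse 1 to 3.80 without wild-type mouse 3. Genes of the B cell receptor complex and surface were also sparse. *Cd79a* had 0 counts in each WTV and 2, 5 and 0 in double mutant mice 1 to 3, and *Cd79b* had 8, 3 and 3 counts in WTV and 4, 16 and 17 in DMV. *Ms4a1*, which encodes CD20, had 0, 1 and 2 counts in WTV and 8, 14 and 8 in DMV. The part of B cells in the *Ly6d* counts was not tested.

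*Ly6c1*, an antigen of monocytes, T cells and endothelium, lies at chr15:74875447-74879260 on the minus strand. It had 0 counts in every WTV and in double mutant mouse 1, and 1 count in each of double mutant mice 2 and 3. All 6 values were under the floor, so no change was detectable at this depth. Among the 50-base windows of *Ly6c1* transcripts, 31.9% also occur in *Ly6c2*, and reads from such windows may not be assigned to either gene. *Ly6c2* had 2, 3 and 8 counts in WTV and 0 counts in each DMV.

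**Figure D1:**
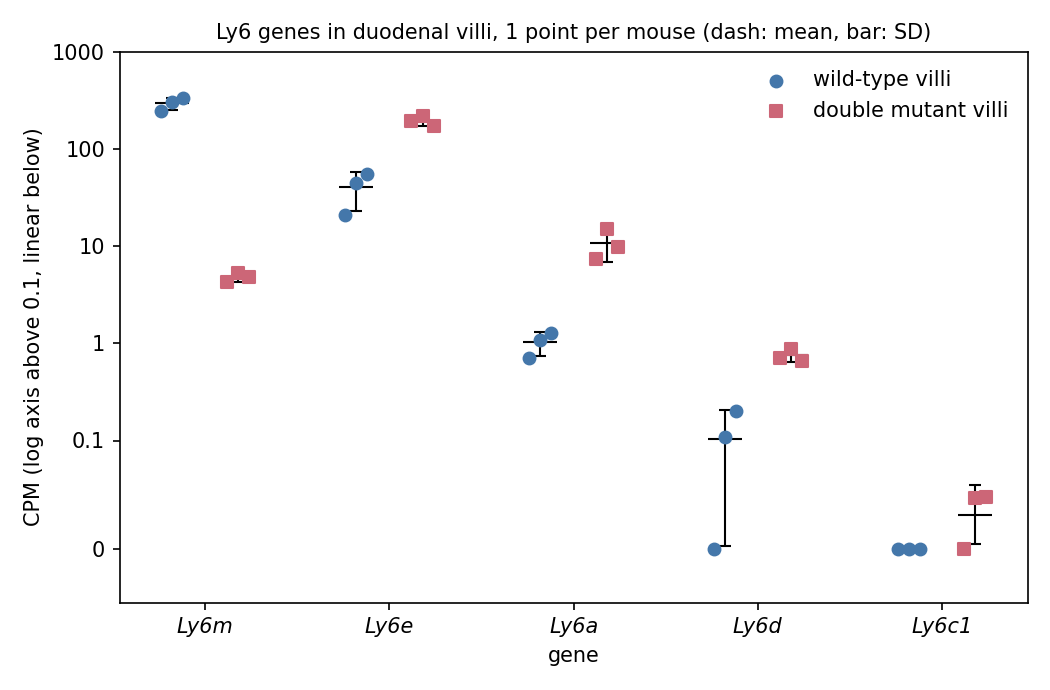
Level of the 5 Ly6 genes in CPM for each mouse, with wild-type villi as circles and double mutant villi as squares (3 mice each; dash, mean; bar, SD; log axis above 0.1 CPM, linear below). *Ly6m* lies at 247 to 331 CPM in wild-type and 4.23 to 5.33 CPM in double mutant villi, whereas *Ly6e*, *Ly6a* and *Ly6d* are higher in every double mutant mouse and *Ly6c1* stays near 0.

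Of the 5 genes, 4 had groups that did not overlap, 1 lower and 3 higher in DMV, where 52.4% of the 13346 tested genes had groups that did not overlap. The rule used this contrast, so nothing is read from that count. Under edgeR's quasi-likelihood test with Benjamini-Hochberg adjustment, 36.8% of tested genes passed an adjusted p of 0.05, 19.7% as higher and 17.0% as lower in DMV. With scaling by library size alone, 72.4% of the calls were higher in DMV, in place of 53.7%, and the median log2 fold change of all genes was 0.19 higher.

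To compare the 5 genes with each other, levels were divided by exon length. In WTV the order was *Ly6m* with 156 ± 22.7 CPM per kb, *Ly6e* with 17.5 ± 7.57, *Ly6a* with 1.25 ± 0.347 and *Ly6d* with 0.150 ± 0.146. In DMV it was *Ly6e* with 84.0 ± 9.75 CPM per kb, *Ly6a* with 13.0 ± 4.66, *Ly6m* with 2.54 ± 0.294 and *Ly6d* with 1.09 ± 0.167. All neighbours in either order were further apart than the sum of their SDs. *Ly6m* made up 89.5 ± 3.00% of the 5-gene sum per kb in WTV and 2.53 ± 0.255% in DMV, and *Ly6e* 9.67 ± 2.85% and 83.6 ± 3.32%. *Ly6a* went from 0.705 ± 0.0802% to 12.7 ± 3.18% of that sum. The level of *Ly6m* per kb was 14.4, 8.23 and 7.38 times that of *Ly6e* in wild-type mice 1 to 3, whereas *Ly6e* was 37.3, 33.2 and 29.3 times *Ly6m* in double mutant mice 1 to 3. The summed level of the 5 genes was 335 ± 60.6 CPM in WTV and 209 ± 25.6 CPM in DMV, with ranges of 269 to 387 and 187 to 237 CPM that did not overlap.

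**Figure D2:**
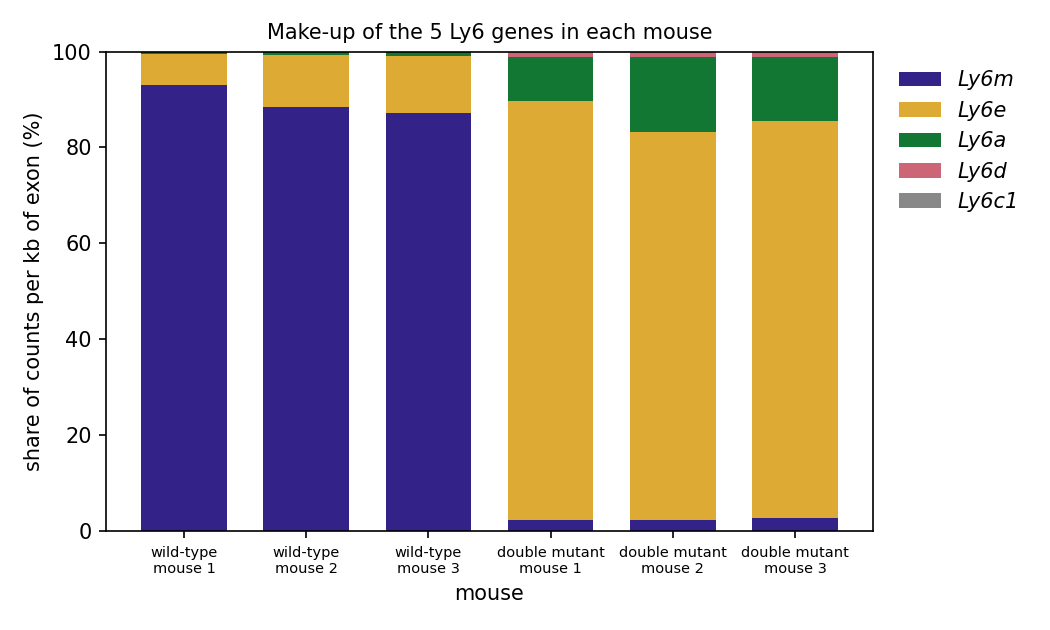
Share of each Ly6 gene in the counts per kb of exon of the 5 genes together, in percent, 1 bar per mouse. *Ly6m* fills 87.3 to 92.9% of the bar in the 3 wild-type mice, and *Ly6e* fills 80.9 to 87.3% in the 3 double mutant mice.

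The 5 genes lie within 286.8 kb of chromosome 15, and none overlaps another annotated gene. *Ly6a* and *Ly6c1* were the closest in sequence, with 82.0% identity over their coding bases, gaps counted as differences. Every other pair among the 5 had 47.3 to 52.7% identity. *Ly6d* and *Ly6e* shared no 50-base window with another gene, *Ly6m* shared 1.36% of its windows and *Ly6a* 4.42%, mainly with *Ly6i*. For the 4 measurable genes, most windows were thus unique to the gene.

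Genes between and around the 5 were taken from a window reaching 500 kb beyond the outermost Ly6 genes. Of 25 other annotated genes, 18 were in the table and 8 had enough counts to test. Of these 8, 4 rose, 1 fell and 3 did not pass, which is 62.5% called beside 36.8% of all tested genes. *Gml2* and *Gml*, whose products are GPI-anchored Ly6-like proteins, lie between *Ly6d* and *Ly6m*. *Gml2* had 0.542, 0.870 and 2.48 CPM in wild-type mice 1 to 3 and 7.56, 11.1 and 9.54 CPM in double mutant mice 1 to 3, a log2 fold change of 2.87 ± 0.50 (edgeR adjusted p = 0.00350). It ran from 2.47 without wild-type mouse 1 to 3.74 without wild-type mouse 3. *Gml* had 1.17, 2.77 and 5.86 CPM in WTV and 8.26, 14.2 and 14.6 CPM in DMV, a log2 fold change of 1.92 ± 0.54 (edgeR adjusted p = 0.0294). *Gml* did not pass without wild-type mouse 2 (edgeR adjusted p = 0.102) or double mutant mouse 2 (0.0931) or 3 (0.0766). These genes share 29.3% and 23.3% of their 50-base windows with each other, so their separate counts are uncertain.

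*Lynx1*, a modulator of nicotinic acetylcholine receptors, had 2, 7 and 8 counts in WTV and 12, 30 and 31 in DMV (log2 fold change 2.00 ± 0.64, edgeR adjusted p = 0.0395), and it did not pass without any one of 5 of the 6 mice. Like *Ly6d*, it passed the filter on low counts through its level in DMV. *Them6* went from 0.874 ± 0.193 to 2.55 ± 0.744 CPM (1.53 ± 0.38, edgeR adjusted p = 0.0135, and 0.0638 without double mutant mouse 2). *9030619P08Rik*, at the far end of the window, fell from 1.55 ± 0.443 to 0.533 ± 0.169 CPM (edgeR adjusted p = 0.0240, and 0.0807 to 0.0841 without wild-type mouse 3 or double mutant mouse 1 or 2). *BC025446*, which lies 334.9 kb from *Ly6m* on the side of *Ly6e*, had 83.5 ± 8.57 and 88.2 ± 9.11 CPM, with groups that overlapped. *Jrk* had a log2 fold change of 0.81 ± 0.32 and passed without wild-type mouse 1, and *Adgrb1* had -0.36 ± 0.94 and turned to 1.35 without that mouse. The number of neighbours that rose fell to 1 without double mutant mouse 2 and to 2 without wild-type mouse 2 or double mutant mouse 3, and none fell without wild-type mouse 3 or double mutant mouse 1 or 2.

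**Figure D3:**
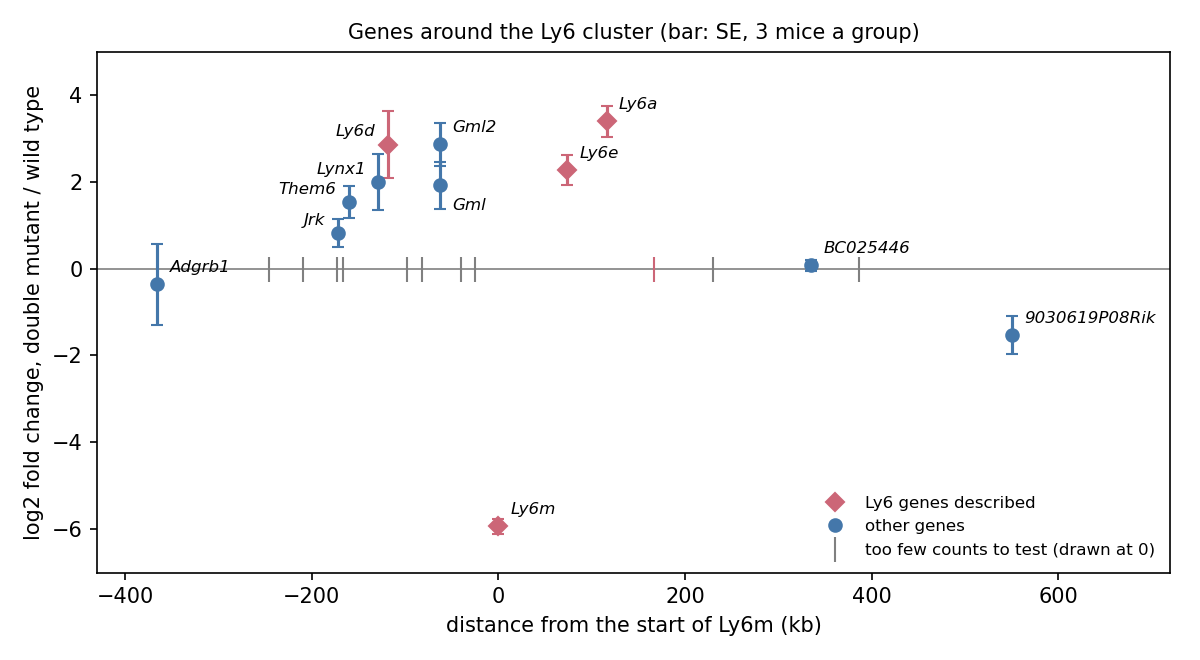
Log2 fold change (DMV over WTV, bars SE, 3 mice a group) of genes around the Ly6 cluster against the distance of their start from that of *Ly6m* in kb. The Ly6 genes described are diamonds, other tested genes circles, and ticks at 0 mark genes with too few counts; *Ly6m* at -5.94 lies between *Gml2* at 2.87 and *Ly6e* at 2.27.

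The Ly6/uPAR family has further members elsewhere in the genome. Of 44 listed family genes outside the 5, 22 were in the table and 11 could be tested. Of the 11, 4 rose, 1 fell and 6 did not pass, 45.5% called beside 36.8% of all tested genes. The median log2 fold change was 0.47, beside 0.02 over all genes. *Lynx1* passed the filter on low counts through its level in DMV, and *Ly6g6f* through its level in WTV. The share called and the median include both. Without wild-type mouse 1, 3 family genes rose, and without double mutant mouse 2, 1 did. *Gml2*, *Gml* and *Lynx1* are counted here as well as among the neighbours. *Lypd8*, which keeps flagellated bacteria away from the colonic epithelium, was the most abundant of these family genes per exon length, with 618, 1585 and 1726 CPM in wild-type mice 1 to 3 and 3521, 4081 and 3467 CPM in double mutant mice 1 to 3. Its log2 fold change was 1.49 ± 0.36 (edgeR adjusted p = 0.0180, and 0.0685 without double mutant mouse 2), and wild-type mouse 1 was again the lowest. *Ly6g6f*, the 1 listed gene that fell, went from 2.55 ± 1.21 to 0.202 ± 0.238 CPM (-3.61 ± 0.81, edgeR adjusted p = 0.00954). It was listed by its symbol, and whether its product has the structure of the Ly6/uPAR family was not checked. It had 0, 10 and 3 counts in double mutant mice 1 to 3, and its log2 fold change ran from -5.06 without double mutant mouse 2 to -3.04 without double mutant mouse 1.

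Among the family genes that did not pass, *Plaur*, the urokinase receptor, had 3 counts in wild-type mouse 1 and 33 to 66 in the 5 other mice, with a log2 fold change of -0.12 ± 0.85. *Spaca4* (0.47), *Lypd1* (0.49), *Cd59b* (-0.25), *Ly6g5b* (-0.47) and *Ly6g6d* (-0.72) had overlapping groups. *Ly6f* had 0, 0 and 3 counts in WTV and 10, 6 and 15 in DMV but was too sparse to test. *Ly6g6e*, *Lypd6* and *Cd59a* had at most 18 counts in any library and overlapping groups, and were not tested either.

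Most Ly6 proteins need a GPI anchor to reach the surface. Of 32 identifiers for genes that build, attach or remodel the anchor, 9 rose, 2 fell and 21 did not pass, 34.4% called beside 36.8% of all genes, with a median log2 fold change of 0.22. With scaling by library size alone, 17 rose and 1 fell. *Pigz*, which adds a side mannose, went from 0.578 ± 0.364 to 8.24 ± 3.34 CPM (3.86 ± 0.56, edgeR adjusted p = 0.00155). Both identifiers of *Pgap1*, which removes an acyl chain from the finished anchor, rose, by 1.63 ± 0.14 and 1.59 ± 0.43 (edgeR adjusted p = 0.000169 and 0.0266). The second of them did not pass without wild-type mouse 1 (0.0959) or 3 (0.0884) or double mutant mouse 3 (0.0562). Of the 2 identifiers of *Pigb*, a mannosyltransferase, 1 rose by 1.38 ± 0.32 (edgeR adjusted p = 0.0107). *Mppe1*, which trims the anchor, fell by 0.85 ± 0.11 on the log2 scale (edgeR adjusted p = 0.000758), and *Pigc*, of the first step of synthesis, fell by 0.50 ± 0.13 (edgeR adjusted p = 0.0164, and 0.0563 and 0.0629 without wild-type mouse 3 or double mutant mouse 2).

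A further list held other GPI-anchored proteins, among them the family genes *Lypd8*, *Plaur* and *Cd59a* counted above. Of its 27 tested genes, 4 rose, 12 fell and 11 did not pass (59.3% called, beside 36.8% of all genes), with a median log2 fold change of -0.42. *Nt5e*, the ecto-5′-nucleotidase CD73, had 129 ± 18.2 CPM in WTV and 1.65 ± 0.570 CPM in DMV, and its log2 fold change was -6.29 ± 0.26 beside -5.94 for *Ly6m* (edgeR adjusted p = 7.06e-06). *Rtn4rl2*, a receptor of the Nogo family, had 400, 328 and 208 counts in WTV and 0 in each DMV. *Rtn4r* (-2.99 ± 0.37) and *Folr1*, a folate receptor (-3.46 ± 0.64), fell too. The ephrins *Efna3* (2.51 ± 0.44), *Efna4* (2.09 ± 0.34) and *Efna1* (0.61 ± 0.14) rose, and *Lypd8* was the fourth of those that rose.

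*Ly6a* and *Ly6e* are known interferon targets, so a list of interferon-inducible genes was set beside them. Of 32 tested, 1 rose, 11 fell and 20 did not pass (37.5% called, beside 36.8% of all genes), with a median log2 fold change of -0.27. *Ifit2*, which binds viral RNA, rose by 2.10 ± 0.42 (edgeR adjusted p = 0.00834). *Socs1* (-1.44 ± 0.34), a brake on cytokine signalling, *Oasl2* (-1.07 ± 0.19), *Usp18* (-0.99 ± 0.21) and *Rtp4* (-0.94 ± 0.23) fell. *Rtp4* did not pass without wild-type mouse 2 (edgeR adjusted p = 0.0519) or double mutant mouse 2 (0.0635) or 3 (0.0523). The number that fell was 7 with scaling by library size alone, 15 without wild-type mouse 1 and 6 without wild-type mouse 2.

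*Ly6a* is also counted among fetal-like epithelial genes. Of 10 other such genes tested, 3 rose, 0 fell and 7 did not pass under edgeR (30.0% called, beside 36.8% of all genes). None of those with a lower level had an unadjusted p under 0.05, and DESeq2 and limma-voom called 0 of them lower. *Clu*, a marker of revival stem cells, went from 0.454 ± 0.233 to 2.91 ± 0.202 CPM (2.69 ± 0.42, edgeR adjusted p = 0.00192). *Ereg*, an EGF receptor ligand, rose by 1.48 ± 0.25 and *Krt7* by 1.21 ± 0.33 (edgeR adjusted p = 0.00266 and 0.0255). *Krt7* did not pass without double mutant mouse 2 (0.0951) or 3 (0.0727). *Anxa3* had 4 counts in wild-type mouse 1 and 69 to 128 in the other 5 mice and did not pass. The number that rose was 4 without wild-type mouse 1 and 2 without double mutant mouse 3.

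**Figure D4:**
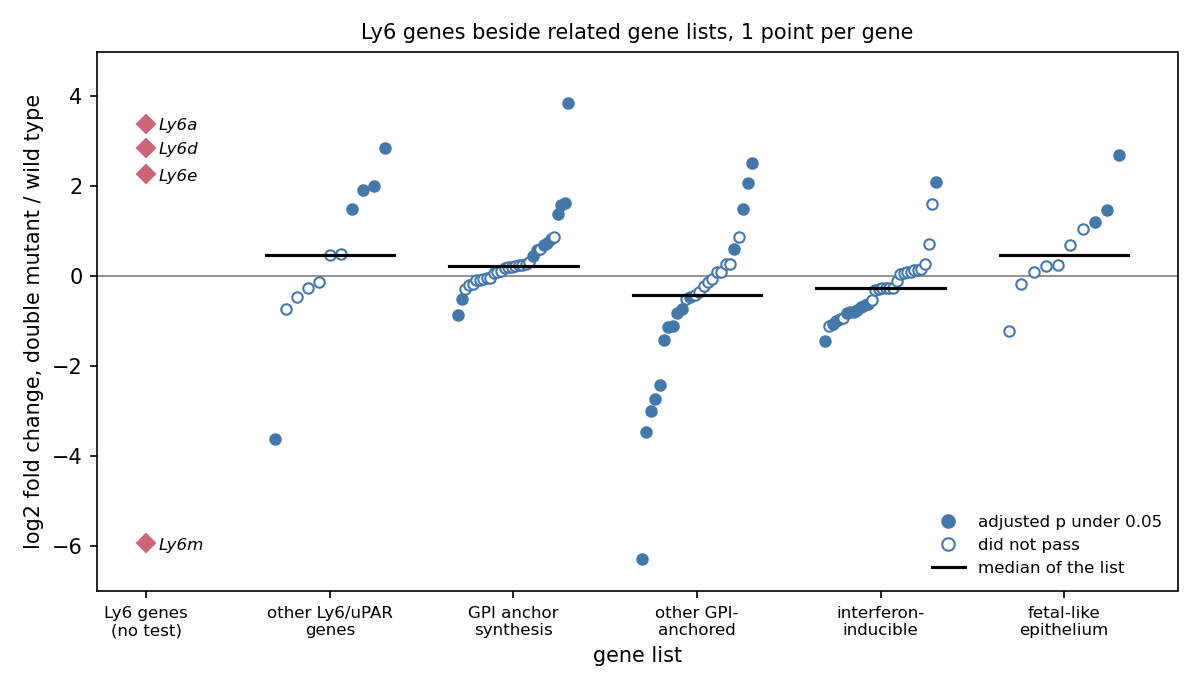
Log2 fold change (DMV over WTV) of the 4 measurable Ly6 genes, given without a test, beside 5 gene lists, 1 point per tested gene, filled where the adjusted p was under 0.05, with the list median as a line. Genes with 0 counts in a whole group are not drawn; the medians run from -0.42 to 0.47, and the Ly6 genes lie at -5.94, 2.27, 2.86 and 3.39.

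The sex of the mice was not used in choosing the genes, so it could be tested, with the group as a covariate. Under edgeR 0 of the 3 genes *Ly6m*, *Ly6e* and *Ly6a* passed, where 0.0225% of all tested genes did. *Ly6d* had passed the filter on low counts through its level in DMV, so its difference is given without a test. Under DESeq2 0 passed of the 3 that had an adjusted p, *Ly6m*, *Ly6e* and *Ly6a*. *Ly6a* differed by -0.75 ± 0.27 on the log2 scale (male minus female, edgeR adjusted p = 0.697) and *Ly6m* by -0.32 ± 0.12 (edgeR adjusted p = 0.697). These 2 genes had an unadjusted p under 0.05, as did 948 of all 13346 genes. *Ly6e* differed by -0.58 ± 0.29 (edgeR adjusted p = 0.753), and *Ly6d*, described without a test, by -0.70 ± 0.78. The difference of *Ly6d* rested on few counts, and it was -4.77 without double mutant mouse 1, where the remaining male had 0 counts, and -0.13 without wild-type mouse 1. Without double mutant mouse 1, where the only male is the wild-type mouse poor in goblet cell transcripts, *Ly6e* differed by -1.26. That fit has 1 male and no spread among males, so only the size of the difference is given. Without wild-type mouse 1 the difference was -0.012. The males were also mouse 1 of each group, so sex and the mice cannot be told apart.

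For *Ly6m*, *Ly6e* and *Ly6a*, the genes with the most similar profile were found by the root mean square distance between log2 CPM (prior count 2) over the 6 mice, each centred on its mean. These neighbours share the group difference and the libraries with the Ly6 genes, and the distances are descriptive. Nearest to *Ly6m* were *Bmp8b*, a BMP ligand (distance 0.256), *Clca4a* (0.369) and *Ada*, adenosine deaminase (0.429). *Clca4a* had 329 ± 76.6 CPM in WTV and 4.47 ± 1.41 CPM in DMV. Nearest to *Ly6a* were *Tfr2*, a transferrin receptor (0.210), *Zfp202* (0.232) and *Grwd1*, a ribosome assembly factor (0.277). *Zfp202* had a mean of 0.0169 CPM in WTV, under the floor of 3 counts, and 0.860 CPM in DMV, so its distance depends on the prior count. Nearest to *Ly6e* were *Nup85*, a nuclear pore subunit (0.104), *Pprc1*, a coactivator of mitochondrial gene expression (0.115), and *Ncaph*, a condensin subunit (0.148). Each of these 3 was, like *Ly6e*, higher in all 3 DMV.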

How the data were processed

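The authors sequenced polyA-enriched RNA of 6 mice (150-base paired reads), aligned the reads to mm9 with HISAT2 v2.0.5, counted them per gene with featureCounts v1.5.0-p3 and deposited raw counts without normalization or pooling. RNA with an integrity number above 4 was accepted. Strand setting and handling of multiply matching reads are not given in the sources used here. The labels and the methods differ in the EDTA steps used to free the epithelium.

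Here, genes were kept by filterByExpr (13346), TMM-scaled, fitted with edgeR 4.0.16 (glmQLFit, glmQLFTest; R 4.3.3) and adjusted by Benjamini-Hochberg. *Lynx1*, *Clu* and *Pigz* passed that filter through their DMV counts, and *Ly6g6f*, *Folr1* and *Rtn4rl2* through their WTV counts. These genes are part of the numbers called in the lists. The SE was derived as the size of the log2 difference over the root of the quasi-likelihood F. Names and positions came from GENCODE vM1, with current symbols through RefSeq synonyms; 20032 of 20073 Ensembl identifiers matched. The fit was first tested on simulated data. Marker shares were compared by an exact permutation test, two-sided, which cannot go below p = 0.1.

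The Ly6 genes and all lists were chosen with earlier results of these data known. Named are the Ly6 genes, up to 4 called genes per list and direction, uncalled family and neighbouring genes with at least 10 counts in a library, and the 3 nearest profiles. *Krt19*, *Vil1*, *Krt20*, *Ptprc*, *Cd8a*, *Cd79a*, *Cd79b*, *Ms4a1*, *Tek*, *Pecam1*, *Plvap*, *Kdr* and *Anxa3* were named after their values were seen. Alternatives were DESeq2 1.42.0, limma-voom (limma 3.58.1), other scalings and filters, a replicate block, sex as a covariate and each mouse left out. The summed share of 1 marker list, that of B cells, is not reported here.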

Additional observations from a re-analysis of the deposited data

How the results depend on the processing

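The log2 fold changes of *Ly6m*, *Ly6e* and *Ly6a* kept their direction under every alternative run. Each moved by less than the SD of its log2 CPM within groups, pooled over WTV and DMV. That of *Ly6d* ran from 2.22 to 3.80 when mice were left out in turn and was not obtained with the filter of 1 CPM in 3 libraries. Scaling by library size alone raised the median of all genes by 0.19, called 1425 genes lower in place of 2273, 17 GPI anchor genes higher in place of 9 and 1 lower in place of 2, and 7 interferon-inducible genes lower in place of 11. Without a filter on low counts, 2 family genes rose in place of 4. DESeq2, limma-voom, the replicate block and sex as a covariate each called 2 interferon-inducible genes higher in place of 1. The causes were not tested.

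With each mouse left out in turn, 1 to 4 family genes and 1 to 4 neighbours rose, and 0 to 1 neighbour fell. In the same fits 1 to 2 GPI anchor genes fell, and 1 to 2 interferon-inducible genes rose and 6 to 15 fell. The 48 identifiers that passed in the lists turned direction in 0 fits, but they no longer passed in 54 of 288 fits without a mouse (17 identifiers) and in 25 of 382 fits under the other alternatives (13 identifiers). Among those that did not pass, *Plaur* turned to 0.957 under limma-voom, 0.0514 with library size alone, 0.382 with the replicate block and 0.351 with sex as a covariate, and ran from -0.696 to 0.315 without a mouse. *Adgrb1* turned to 0.0456 under limma-voom, 0.0917 with the replicate block and 0.0517 with sex as a covariate, and ran from -0.859 to 1.35 without a mouse. Leaving out a mouse also turned *Ly6g5b* (-0.950 to 0.104), *Cd59b* (-0.519 to 0.0939) and *BC025446* (-0.0106 to 0.145).

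Mice with the same replicate number did not deviate together (r = 0.0224, -0.109 and 0.0123 over genes). Not every mouse correlated best with its own number. With 3 mice a group this check is too weak to tell whether the mice were matched. The paper states that replicates were matched for age and sex between the groups. With the replicate block, 3834 genes were called in place of 4905, and *Ly6m*, *Ly6e*, *Ly6a* and *Ly6d* had log2 fold changes of -5.93, 2.37, 3.35 and 2.93. *Ly6c1* could not be measured at this depth, and *Ly6d* rests on at most 19 counts in a library.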

Other observations

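Promoter windows of RefSeq (GRCm38.p6) covering 250 bases upstream of a start site were searched on both strands for the interferon-stimulated response element, the gamma-activated site (TTCNNNGAA), a TCF/LEF site (CTTTGAT), the SMAD box (GTCTAGAC) and a GC-rich BMP element (GGCGCC). Of 32851 such windows, 2.98%, 7.02%, 3.21%, 0.167% and 9.59% held them. The table holds 2 windows of *Ly6c1*, in which 0 of these letter patterns were found, and none for *Ly6m*, *Ly6e*, *Ly6a* and *Ly6d*.

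Shares of counts in the marker lists of other cells were compared over mice, with p-values adjusted over 7 lists. The lists for epithelium, myeloid cells, endothelium and fibroblasts had groups that did not overlap (exact permutation p = 0.1, the smallest possible with 3 mice against 3, adjusted 0.14). Goblet cell genes (exact p = 0.5) and T cell genes (exact p = 0.4) had groups that overlapped, through wild-type mouse 1 alone. The other 2 wild-type mice, at 1.06 and 1.08% for goblet and 0.0177 and 0.0181% for T cell genes, lay above every DMV, at 0.493 to 0.547% and 0.00911 to 0.0133%. Without wild-type mouse 1 the log2 ratios (DMV over WTV) were -1.03 and -0.74, in place of -0.45 and -0.47. Fibroblast genes were at most 4.91e-05% of counts in any library, with *Col1a2*, *Col3a1* and *Pdgfra* at no more than 3 counts in each. The summed share of 6 myeloid genes was 0.000425 to 0.000694% in WTV and 0.000706 to 0.00104% in DMV.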
